A study of Aedes aegypti with 33 samples.

Results

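In Ae. aegypti Aag2 cells, 227 of 19712 genes moved in opposite directions with added heme in Schneider's Drosophila medium and in Leibovitz's L-15 medium. Of these, 121 were higher with heme in Schneider's medium and lower with heme in L-15 medium, and 106 were lower in Schneider's medium and higher in L-15 medium. The 227 genes were chosen by the heme difference itself, so their values in these cultures are a description and carry no test. The difference d was the log2 ratio of the mean level in 10 μM heme to the mean level in 0 μM heme, each in CPM (reads of the gene scaled to a common column total) plus 1, less the median ratio of the genes with a mean of at least 5 CPM in that medium. A gene was taken when d was at least 0.4 in size in both media and of opposite sign. Without subtracting the median, the rule took 145 and 81 genes in place of 121 and 106. At the same limit, 1524 genes were higher with heme in both media and 488 were lower in both.

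Aag2 is a continuous Ae. aegypti line that began as embryonic tissue, and A20 is another continuous line of the same mosquito. Aag2 cells were grown for 72 h with 10 μM heme and no FBS, with 0 μM heme and no FBS, or with 10% FBS (regular growth media), in Schneider's medium in 1 experiment and in L-15 medium in another. A20 cells were grown for 72 h in SF900 II medium with 10 μM heme, in SF900 II medium with 0 μM heme, or in L-15 medium with 10% FBS, so that in this line serum and medium changed together. In the fourth experiment Aag2 cells were kept for 48 h in Schneider's medium with 10% FBS and 20 μM heme, or with 10% FBS alone. Each group had 3 biological replicates, 33 libraries in all, with 22860764 to 38002762 counted reads per library. The 2 media were separate experiments, so the medium and the experiment cannot be told apart. In such bulk libraries a change in the share of a kind of cell and a change of RNA per cell cannot be told apart either.

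Heme is the iron-containing group of hemoglobin, and a female mosquito takes it up in large amounts from blood. Inside cells it is a cofactor of cytochromes and other enzymes and is toxic when free. In animals its synthesis starts with 5-aminolevulinic acid synthase (ALAS), which sets the rate of the pathway and is held down by heme in many systems. Heme is also bound by a nuclear receptor of the response to the steroid hormone 20-hydroxyecdysone, which drives egg development after a blood meal. A culture without FBS lacks serum as well as the heme that serum carries.

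**Figure D1:**
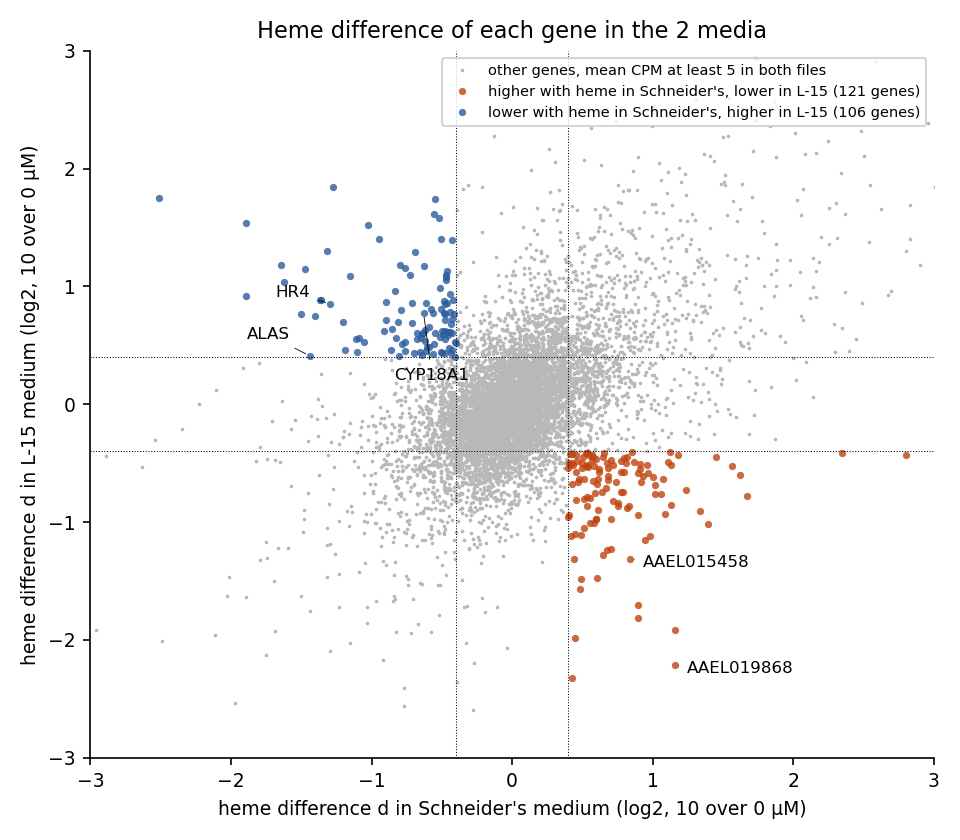
Heme difference d (log2, 10 over 0 μM heme, less the median) of each gene in Schneider's medium (x axis) and in L-15 medium (y axis). Red points are the 121 genes higher with heme in Schneider's medium and lower in L-15 medium, blue points the 106 genes with the opposite pattern, and grey points other genes with a mean of at least 5 CPM in both media; dotted lines mark the limit of 0.4, and grey points beyond the axes are not drawn.

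Most of the differences were modest. Among the 121 genes higher in Schneider's medium, d in that medium ran from 0.40 to 2.80 with a median of 0.67, and d in L-15 medium from -2.32 to -0.41 with a median of -0.64. Among the 106 genes lower in Schneider's medium, d there ran from -2.51 to -0.40 with a median of -0.62, and d in L-15 medium from 0.41 to 1.84 with a median of 0.70. Only 3 of the 121 and 9 of the 106 exceeded 1 in size in both media. A mean of at least 5 CPM in both media was reached by 78 of the 121 and 62 of the 106 genes.

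The libraries of 10 and 0 μM heme did not overlap in either medium for 96 of the 121 genes and 75 of the 106. Over all 19712 genes, libraries apart in both media were found in the direction of the 121 genes for 3.97% and in that of the 106 genes for 2.13%, and in any pair of directions, same or opposite, for 31.6%. Among genes with a mean of at least 5 CPM in both media these shares were 8.38% (beside 68 of 78 members) and 4.32% (beside 52 of 62 members). In edgeR's quasi-likelihood test at an adjusted p (Benjamini-Hochberg) under 0.0001, 49 of the first 121 genes were called higher in Schneider's medium, where 7.53% of all genes tested were called higher, and 56 were called lower in L-15 medium, where 9.87% were called lower. Of the 106 genes, 39 were called lower in Schneider's medium beside 9.55% of all genes, and 23 were called higher in L-15 medium beside 8.13%. Both calls were met by 38 of the 121 genes and 18 of the 106, beside 0.455% and 0.177% of the 12979 genes tested in both media (7.66% were called in both in any pair of directions). Neither call was met by 54 of the 121 genes and 62 of the 106, and 71.2% of the genes tested in both media were called in neither. These counts describe the contrasts that chose the genes, and nothing is read from them.

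At the edge of the limit, among genes with at least 10 CPM, AAEL025249 was the last one taken in the first direction, with d of 0.40 in Schneider's medium and -0.54 in L-15 medium. AAEL007788 fell just outside, with 0.43 and a value in L-15 medium that was under the limit only past the second decimal (-0.40). In the other direction AAEL007114 was the last one inside, with -0.40 and 0.52, and AAEL019578 the first one outside, with -0.90 and 0.39.

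Only 16 of the 227 genes had a named product, so genes of heme synthesis without one would be missed. The 1 gene of heme synthesis with a named product was AAEL007787, 5-aminolevulinic acid synthase (ALAS), on chromosome 3 at 133488369 to 133516968 of the AaegL5 assembly. In Schneider's medium it had 31.3, 29.0 and 27.2 CPM in 10 μM heme, against 69.9, 80.6 and 77.3 CPM in 0 μM heme and 76.9, 82.6 and 79.7 CPM with FBS. In L-15 medium it had 30.0, 29.0 and 31.1 CPM in 10 μM heme, against 22.8, 21.8 and 20.2 CPM in 0 μM heme and 46.4, 42.7 and 41.4 CPM with FBS. With 10 μM heme the libraries of the 2 media lay at about the same level, while without heme those of Schneider's medium were all far above those of L-15 medium. The difference d was -1.44 in Schneider's medium and only 0.41 in L-15 medium, close to the limit, and the gene stayed a member in 10 of 12 selections that each left out 1 library. ALAS was among the genes called in Schneider's medium but not in L-15 medium.

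ALAS was lower with heme in an experiment that played no part in the choice. At 48 h in Schneider's medium it had 31.3, 33.5 and 32.9 CPM with FBS and 20 μM heme, against 74.5, 68.6 and 76.3 CPM with FBS alone. The 2 groups did not overlap, and the log2 fold change was -1.17 ± 0.05 (SE), with an adjusted p of 5.89e-06 in edgeR's quasi-likelihood test. The call held in 4 of the 6 fits that each left out 1 library, with adjusted p from 1.93e-05 to 0.000131 over the 6. In A20 cells the levels were 13.2, 17.1 and 16.0 CPM in 10 μM heme, against 28.7, 43.1 and 39.4 CPM in 0 μM heme, and the fitted log2 fold change of -0.55 ± 0.35 (SE) did not pass the threshold (adjusted p = 0.19), although the CPM of the 2 groups did not overlap. Scaled by library size alone it was -1.27 (adjusted p = 0.00791). The other 3 genes of the heme and iron list with an annotation did not reach the limit in both media with opposite signs. Of these, AAEL002304 (porphobilinogen synthase, the next step of the pathway) had d of -0.10 in Schneider's medium and -0.73 in L-15 medium, AAEL013389 (coproporphyrinogen III oxidase, a late step) -0.30 and 0.30, and AAEL011641 (transferrin, which binds iron) 0.59 and -0.06.

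Among the 15 genes with a named product that were lower with heme in Schneider's medium and higher in L-15 medium, 2 are tied to ecdysone. AAEL005850 (HR4, chromosome 3, 218937266 to 219454745) encodes a nuclear receptor that in Drosophila belongs to the ecdysone response. In Schneider's medium HR4 had 18.6, 20.1 and 17.5 CPM in 10 μM heme, against 40.0, 47.9 and 45.7 CPM in 0 μM heme and 57.5, 56.6 and 54.4 CPM with FBS. Its levels in L-15 medium were 10.3, 9.58 and 10.6 CPM in 10 μM heme, against 5.16, 4.40 and 5.43 CPM in 0 μM heme and 31.4, 20.7 and 15.4 CPM with FBS. The libraries of 10 and 0 μM heme were apart in both media, with d of -1.30 and 0.85, and in both media the FBS libraries were the highest. HR4 was called in Schneider's medium but not in L-15 medium. The fold change at 48 h was not past the threshold (log2 fold change -0.54 ± 0.18 (SE), adjusted p = 0.0709 in edgeR's test), and neither was that in A20 cells (-0.47 ± 0.26 (SE), adjusted p = 0.136).

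AAEL004870 (CYP18A1, chromosome 1, 289386124 to 289399452) encodes a cytochrome P450, an enzyme class that itself carries heme, and in Drosophila CYP18A1 breaks down 20-hydroxyecdysone. It had 10.1, 7.25 and 6.02 CPM in 10 μM heme, against 11.7, 11.8 and 11.8 CPM in 0 μM heme in Schneider's medium. In L-15 medium it had 8.10, 6.34 and 7.22 CPM in 10 μM heme, against 3.13, 3.54 and 4.34 CPM in 0 μM heme. The 2 groups were apart in each medium, with d of -0.63 and 0.77, but the gene was called in neither. At 48 h CYP18A1 had 1.70, 1.42 and 1.46 CPM with 20 μM heme, against 5.43, 5.77 and 5.26 CPM with FBS alone. It was lower there, without overlap, with a log2 fold change of -1.84 ± 0.14 (SE) (adjusted p = 9.61e-05 in edgeR's test), a call so near the threshold that it was lost in each of the 6 fits with 1 library left out (adjusted p 0.000441 to 0.000979). In A20 cells it had 40.8, 13.9 and 13.3 CPM in 10 μM heme, against 63.6, 46.3 and 48.3 CPM in 0 μM heme, and 1 heme library stood near the 0 μM group (log2 fold change -0.57 ± 0.43 (SE), adjusted p = 0.265).

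Other genes with a named product in this direction had varied roles. The P450 gene AAEL006805 (CYP9J2, chromosome 3, 368460018 to 368462540) had 94.7, 97.7 and 98.0 CPM in 10 μM heme, against 179.9, 162 and 167 CPM in 0 μM heme in Schneider's medium. Its levels in L-15 medium were 71.3, 66.7 and 66.3 CPM in 10 μM heme, against 36.9, 33.3 and 37.2 CPM in 0 μM heme, so that neither medium showed overlap. The CYP9J family is known in this mosquito for the breakdown of insecticides. AAEL010408, a metabotropic receptor of the GABA B family, had d of -0.82 in Schneider's medium and 0.56 in L-15 medium. AAEL009173 (fasciclin II, a cell adhesion molecule of the immunoglobulin superfamily) had -0.55 and 0.52. AAEL003408 (a leucine-rich transmembrane protein) and AAEL010405 (alkyldihydroxyacetonephosphate synthase, an enzyme of ether lipid synthesis) had larger differences in L-15 medium, 1.52 and 1.18, at low levels of at most 19.7 CPM in every library of the 2 media. AAEL010942 (kinesin-like protein KIF3A, a motor subunit) had d of -0.64 and 0.61, and a further member, AAEL010956, lies inside its span on chromosome 3 (167658451 to 167691613 within 167650185 to 167713770). The use of strand in the counting is not given in the sources used here, so the reads of these overlapping genes cannot be told apart.

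Among the lists of gene functions, few held any of the 227 genes. The transporter list had 2 of its 42 annotated genes, AAEL009206 (an organic cation transporter) in the direction of higher in Schneider's medium and AAEL003387 (a cationic amino acid transporter) in the opposite direction. Glycolysis had 1 of 5, the L-lactate dehydrogenase AAEL012014, which interconverts pyruvate and lactate and fell outside the rule for named genes. It had 875, 1069 and 864 CPM in 10 μM heme, against 1150.3, 1179 and 1236 CPM in 0 μM heme in Schneider's medium. In L-15 medium it had 3476, 3412 and 3329 CPM in 10 μM heme, against 2079, 2058 and 2043 CPM in 0 μM heme. The 2 groups were apart in each medium, with d of -0.44 and 0.68. Antioxidant and detoxification genes had 2 of 13 (CYP18A1 and CYP9J2), the cytoskeleton list 1 of 18 (KIF3A), and the lists of chaperones (9), protein degradation (16), translation (37), mitochondrial respiration (11) and lipid metabolism (14) had 0. The annotation used here covers 24 of the 106 genes lower in Schneider's medium but only 4 of the 121 in the other direction, so these counts do not compare the 2 directions. It is shortened and ordered by a cluster of expression patterns of the Schneider's experiment, so its coverage is not independent of the rule. It named a product for 773 genes, and 15 of the 106 genes had one. With so few, the counts per list are a description only.

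In the direction of higher with heme in Schneider's medium, the organic cation transporter AAEL009206 had 38.5, 39.9 and 42.3 CPM in 10 μM heme, against 15.6, 16.5 and 17.9 CPM in 0 μM heme and 45.3, 44.0 and 39.7 CPM with FBS. Its levels in L-15 medium were 172, 167 and 157 CPM in 10 μM heme, against 235, 233 and 223 CPM in 0 μM heme and 70.5, 79.6 and 73.9 CPM with FBS. All 3 treatments were higher in L-15 medium than in Schneider's medium, and the heme libraries were above those without heme in Schneider's medium and below them in L-15 medium (d of 1.13 and -0.51). At 48 h it had 33.9, 37.6 and 35.6 CPM with 20 μM heme, against 27.2, 22.5 and 28.9 CPM with FBS alone, apart but not past the threshold (log2 fold change 0.44 ± 0.09 (SE), adjusted p = 0.00986 in edgeR's test).

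Among the 121 genes, and of those with at least 10 CPM and groups apart in both media, the largest differences in both media at once were those of AAEL019869 and AAEL019868, for which the annotation used here gives no product. AAEL019868 had 887, 899.6 and 952 CPM in 10 μM heme, against 386, 372 and 393 CPM in 0 μM heme in Schneider's medium. In L-15 medium it had 94.8, 57.0 and 58.6 CPM in 10 μM heme, against 299, 337 and 323 CPM in 0 μM heme. Its d was 1.16 in Schneider's medium and -2.21 in L-15 medium. AAEL019869 had 1.16 and -1.91 and followed it library by library (958, 967 and 1022 CPM in 10 μM heme in Schneider's medium). Whether the 2 genes share reads was not tested, so they are not separate evidence, although each is counted in the totals given here. The same holds for AAEL016131 and AAEL016132, at a mean of 2.45 CPM in Schneider's medium, which had equal d (0.60 and -0.98). The next in rank among genes with at least 10 CPM and groups apart in both media were AAEL019857 (0.98 and -1.12), AAEL000294 (1.09 and -0.93), AAEL001351 (1.13 and -0.86), AAEL015458 (0.84 and -1.31), AAEL005186 (0.81 and -0.88) and AAEL000080 (1.02 and -0.76).

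AAEL015458 is shown by the primers that were designed for it in the study, since it had the largest fitted change of the members tested in A20 cells. Both are printed in lower case, and neither has a part marked.
AAEL015458 forward: atgatggagcgatccgatgt
AAEL015458 reverse: tacgcgcatttggattcagg
In Schneider's medium AAEL015458 had 596, 542 and 629.6 CPM in 10 μM heme, against 292, 304 and 328 CPM in 0 μM heme and 122, 128 and 155 CPM with FBS. Its levels in L-15 medium were 27.8, 24.2 and 27.5 CPM in 10 μM heme, against 65.5, 63.7 and 66.8 CPM in 0 μM heme and 95.8, 107 and 116 CPM with FBS. The order of the 3 treatments was reversed from end to end between the media.

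In the opposite direction, the largest differences among genes with at least 10 CPM and groups apart in both media included AAEL007206, with 434, 502 and 499 CPM in 10 μM heme, against 1187, 1115 and 1066 CPM in 0 μM heme in Schneider's medium. In L-15 medium AAEL007206 had 83.6, 81.2 and 80.4 CPM in 10 μM heme, against 33.5, 29.1 and 32.1 CPM in 0 μM heme, and d was -1.32 and 1.30. AAEL024540 had d of -1.37 and 0.88, AAEL008316 -0.79 and 0.80, and AAEL007804 -0.76 and 1.15, with libraries close to each other within each group.

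For 2 genes of this rank a single library carried the difference. AAEL007077 had 20.5, 21.6 and 19.1 CPM in 10 μM heme, against 21.9, 22.6 and 86.5 CPM in 0 μM heme in Schneider's medium, and without replicate 3 of 0 μM heme its d was -0.21. AAEL026302 had 134, 111 and 121 CPM in 10 μM heme, against 142, 148 and 374 CPM in 0 μM heme, and without the same library its d was -0.34. Both were then smaller than the limit. Of the 121 and the 106 genes, 73 and 53 stayed members whichever of the 12 libraries was left out.

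The level with FBS was not used by the rule in d, but the comparisons with it share the 0 and 10 μM libraries and are given as a description. In Schneider's medium the mean with FBS of the 121 genes lay below both other means for 42 genes, above both for 7, nearer to 0 μM heme for 45 and nearer to 10 μM heme for 27. For the L-15 cultures it lay below both for 71 of the 121, above both for 16, nearer to 10 μM heme for 19 and nearer to 0 μM heme for 15. Against FBS, the median log2 ratio of these genes was 0.65 in 10 μM heme and -0.14 in 0 μM heme in Schneider's medium. The L-15 cultures had medians of 0.25 with 10 μM heme and 0.93 with 0 μM heme. By these medians the culture with heme was farther from FBS in Schneider's medium, and the culture without heme in L-15 medium. The places and ratios were taken from CPM by column total, with no median subtracted. In L-15 medium the TMM factors, edgeR's scaling of the column totals, were 0.860 to 0.866 with FBS. They were 1.02 to 1.03 in 0 μM heme and 1.12 to 1.14 in 10 μM heme. Scaling by them would lower the ratios against FBS in L-15 medium, more so in 10 μM heme, and was not done here.

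The 106 genes lower with heme in Schneider's medium had FBS levels on all sides of the other means. In Schneider's medium the mean with FBS lay above both other means for 26 of them, below both for 21, nearer to 10 μM heme for 23 and nearer to 0 μM heme for 36. For the L-15 cultures it lay above both for 23, below both for 46, nearer to 10 μM heme for 21 and nearer to 0 μM heme for 16. Against FBS their median log2 ratio was -0.30 in 10 μM heme and 0.22 in 0 μM heme in Schneider's medium. The L-15 cultures had 0.55 with 10 μM heme and -0.19 with 0 μM heme. These values also came from CPM by column total, with the same limit from scaling in L-15 medium.

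The same genes can be read across the media at each treatment, as the log2 ratio of L-15 over Schneider's medium less its median over genes with at least 5 CPM. The 121 genes had a median ratio of -0.46 in 10 μM heme, 0.92 in 0 μM heme and 0.02 with FBS. Of them, 80 were lower in L-15 medium in 10 μM heme, and 99 were higher there in 0 μM heme. The 106 genes had a median of 0.64 in 10 μM heme, -0.80 in 0 μM heme and -0.11 with FBS, with 83 higher in L-15 medium in 10 μM heme and 94 lower there in 0 μM heme. The sign of the media difference was opposite between 10 and 0 μM heme for 58 of the 121 and 71 of the 106 genes. For the others the gap between the media widened or narrowed without crossing 0.

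**Figure D2:**
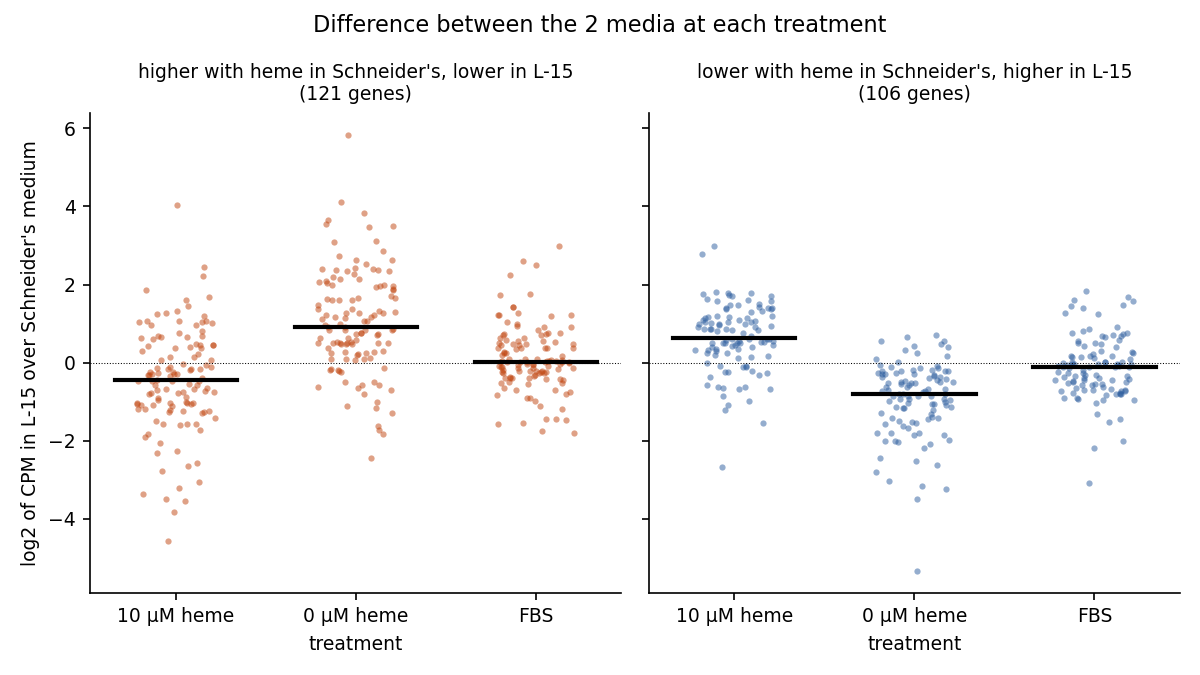
Log2 ratio of the mean CPM in L-15 over Schneider's medium (y axis, less the median over genes with at least 5 CPM in both media) at each treatment (x axis), 1 point per gene, with the median as a black line. The 121 genes on the left have medians of -0.46 in 10 μM heme, 0.92 in 0 μM heme and 0.02 with FBS, and the 106 genes on the right 0.64, -0.80 and -0.11. The direction of the shift between 0 and 10 μM heme follows from the rule that chose the genes.

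With FBS, the media could be compared in libraries outside the choice of genes, in a joint fit of 18 Aag2 libraries. Of the 121 genes, 21 were called higher in L-15 than in Schneider's medium (17.4%, beside 8.76% of all genes tested) and 16 lower (13.2%, beside 8.28%). Of the 106 genes, 8 were called higher (7.55%) and 15 lower (14.2%). The median log2 fold change was 0.03 for the 121 genes and -0.14 for the 106, against 0.01 for all genes. AAEL010529 had the largest rise among the called genes of the 121, with 584, 567 and 447 CPM in L-15 medium, against 80.3, 56.2 and 57.3 CPM in Schneider's medium, without overlap (log2 fold change 3.02 ± 0.13 (SE), adjusted p = 3.51e-12 in edgeR's quasi-likelihood test). AAEL007206 had the largest fall among the 106, with 88.9, 69.3 and 64.1 CPM in L-15 medium, against 625, 636 and 587 CPM in Schneider's medium (-3.08 ± 0.10 (SE), adjusted p = 1.21e-13). ALAS was lower in L-15 medium as well (-0.90 ± 0.06 (SE), adjusted p = 3.03e-09). HR4 (-1.35 ± 0.16 (SE), adjusted p = 1.90e-06) and CYP9J2 (-0.94 ± 0.07 (SE), adjusted p = 1.91e-09) were also lower there.

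The 48 h experiment showed which direction the genes took in an independent set of Aag2 cultures in Schneider's medium, with FBS present and more heme. Of the 121 genes higher with heme in Schneider's medium at 72 h, 114 could be tested at 48 h, and 5 were called higher (4.39%, beside 0.583% of all genes tested). None was called lower (0.183% of all genes) in edgeR's quasi-likelihood test. At an unadjusted p under 0.05 in that test, 45 were higher and 9 lower. The exact test called 17 higher and 0 lower, beside 303 and 352 of all 12007 genes. DESeq2 called 20 higher and 2 lower, beside 403 and 611 of all genes. A positive sign was found for 83 of the 114 genes, against 51.9% of all genes, and their median log2 fold change was 0.19, against 0.01 over all genes. Of the 106 genes in the opposite direction, 95 could be tested, and 2 were called lower (2.11%) and 0 higher. The exact test called 6 of them lower and 3 higher, and DESeq2 8 lower and 3 higher. At an unadjusted p under 0.05 in the quasi-likelihood test, 18 of them were lower and 14 higher. The shares over all genes at this unadjusted level were not computed. A positive sign was found for 45 of the 95 genes and a negative sign for 50, and their median log2 fold change was -0.02. All 7 genes called with the 6 libraries thus moved at 48 h as they had in Schneider's medium at 72 h, and none as in L-15 medium.

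The 5 genes called higher at 48 h had no product in the annotation used here. AAEL010529 had 57.3, 65.8 and 51.4 CPM with 20 μM heme, against 9.56, 7.01 and 10.7 CPM with FBS alone. Every heme library was far above every FBS library, with a log2 fold change of 2.67 ± 0.15 (SE) (adjusted p = 1.46e-05 in edgeR's test). AAEL014438 had 29.0, 33.3 and 30.6 CPM with 20 μM heme, against 10.6, 9.45 and 11.6 CPM with FBS alone (1.55 ± 0.09 (SE), adjusted p = 2.12e-05), again without overlap. AAEL012859 had 109.7, 139 and 123 CPM with 20 μM heme, against 47.2, 42.4 and 54.5 CPM with FBS alone (1.36 ± 0.10 (SE), adjusted p = 8.68e-05). The other 2, which the rule for named genes did not take, were AAEL024717 (1.04 ± 0.05 (SE), adjusted p = 9.85e-06) and AAEL007342 (0.62 ± 0.04 (SE), adjusted p = 2.50e-05).

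These calls rested on few libraries. AAEL010529 stayed called in 3 of the 6 fits with a library left out, AAEL014438 in 2 and AAEL012859 in 0 (adjusted p 0.000107 to 0.000988). The 7 calls became 1, 4, 5, 2, 3 or 0 when 1 of the 6 libraries was left out in turn, with 0 after replicate 3 of the heme group and 1 after replicate 1 of the FBS group. These fits also held 2 calls against the direction in Schneider's medium, both of genes not called with all 6 libraries. One was the only call without replicate 1 of the FBS group, AAEL023692 of the 121 genes, which was called lower (log2 fold change -2.90), and its FBS libraries at 48 h differed widely (8.83, 42.9 and 57.9 CPM). The other was L-lactate dehydrogenase (AAEL012014) of the 106 genes, which was called higher without replicate 3 of the FBS group (0.77, adjusted p = 7.56e-05 in edgeR's test).

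**Figure D3:**
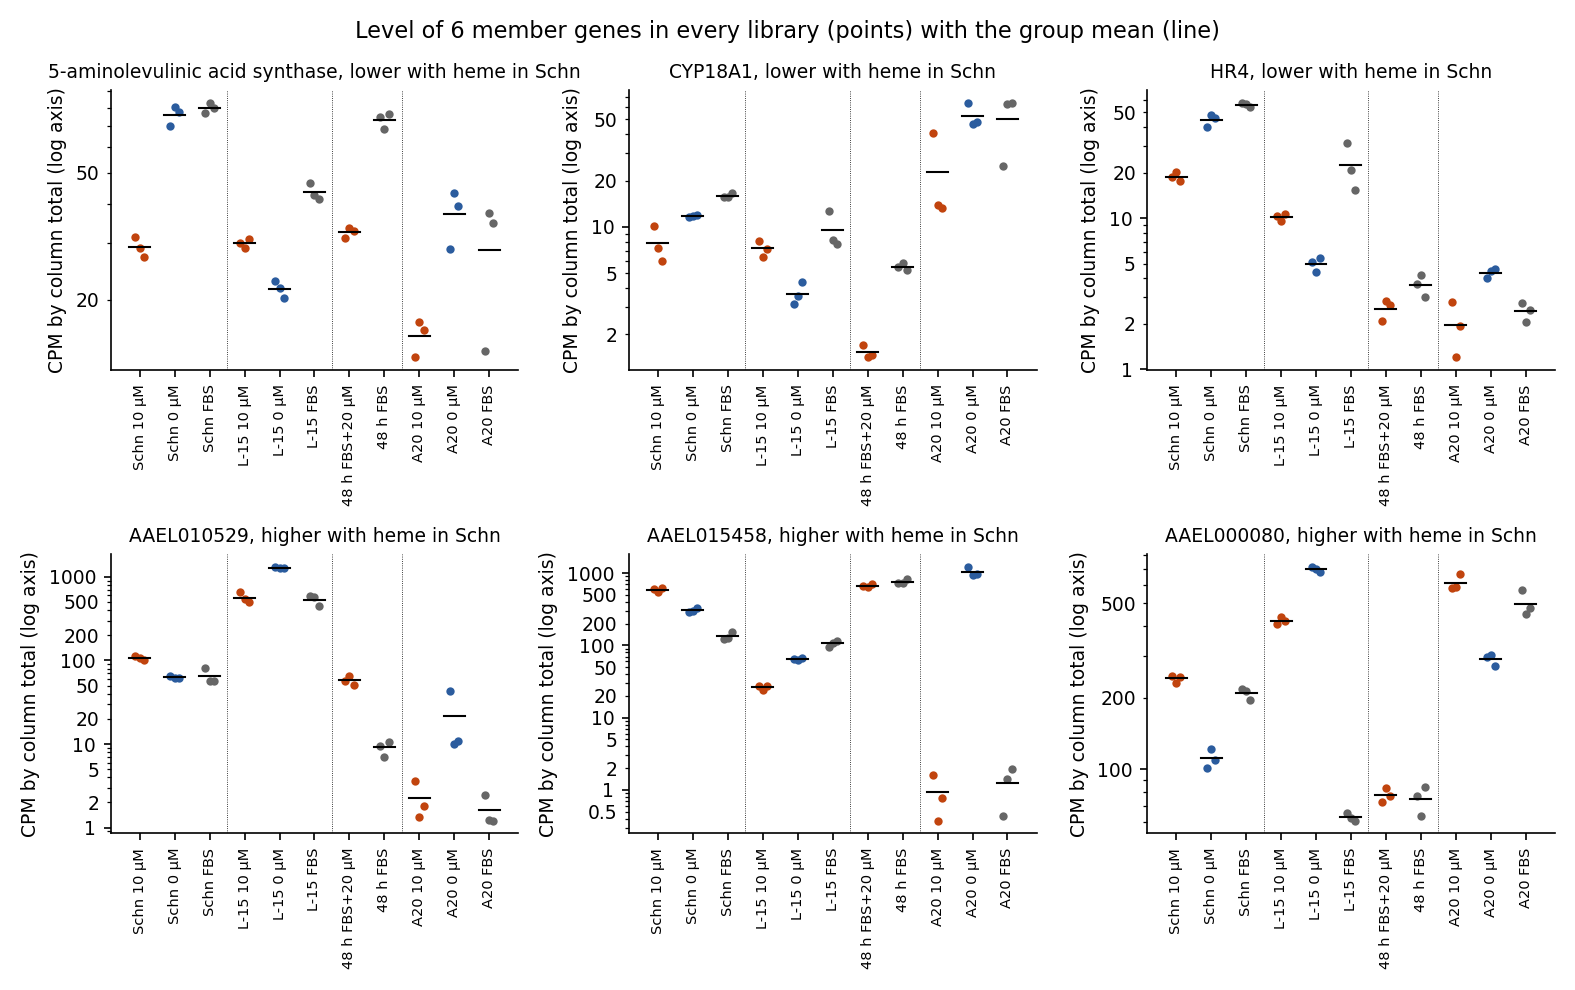
Level of 6 genes in every library (y axis, CPM by column total on a log axis) for each group (x axis), with points for libraries, lines for group means, and red for added heme, blue for 0 μM heme and grey for FBS. ALAS, CYP18A1 and HR4 are lower with heme in Schneider's medium and higher in L-15 medium, AAEL010529, AAEL015458 and AAEL000080 the opposite, and AAEL015458 is at 946 to 1230 CPM or near 1 CPM in A20 cells.

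The A20 libraries also played no part in the choice. Of the 121 genes higher with heme in Schneider's medium, 98 could be tested, 19 were called lower in 10 than in 0 μM heme (19.4%, beside 9.14% of all genes) and 4 higher (4.08%, beside 9.79%). Their median log2 fold change was -0.97, against -0.19 over all genes. Of the 106 genes in the opposite direction, 93 could be tested, 6 were called lower (6.45%) and 5 higher (5.38%), with a median of -0.33. Scaled by library size alone, the counts were 21 lower and 1 higher of the 121 genes, and 14 lower and 4 higher of the 106, with 2124 lower and 420 higher over all genes in place of 1119 and 1199. The TMM factors of the A20 heme libraries were 0.834, 0.685 and 0.715, against 1.20 to 1.22 in 0 μM heme, so CPM by column total and the fitted fold change differ in this line. The 34 calls became 54 without replicate 1 of 10 μM heme, 15 without its replicate 2 and 8 without its replicate 3, and 14, 5 and 5 without replicate 1, 2 or 3 of 0 μM heme.

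AAEL015458 had 1.61, 0.375 and 0.773 CPM in 10 μM heme, against 1229.5, 946 and 981 CPM in 0 μM heme and 0.435, 1.40 and 1.94 CPM with FBS. It was far lower in every library with heme or serum, with a log2 fold change of -9.48 ± 0.56 (SE) for heme (adjusted p = 2.19e-06 in edgeR's test), and it stayed called in all 6 fits with a library left out. AAEL019868 had 0.628, 0.0832 and 0 CPM in 10 μM heme, against 22.9, 27.7 and 29.4 CPM in 0 μM heme and 0.181, 0.0822 and 0 CPM with FBS (-6.13 ± 0.73 (SE), adjusted p = 7.17e-05). AAEL021180 had 0.432, 0.0832 and 0.270 CPM in 10 μM heme, against 9.37, 14.8 and 14.9 CPM in 0 μM heme and 0.979, 0.657 and 0.688 CPM with FBS (-4.93 ± 0.42 (SE), adjusted p = 1.19e-05). With each of the 6 libraries left out in turn, AAEL019868 stayed called in 1 fit and AAEL021180 in 3. In these 3 genes the libraries with heme and with FBS were alike and the 0 μM libraries stood alone. Among the 19 genes called lower, the mean with FBS, in L-15 medium, was nearer to that in 10 μM heme for 13. AAEL019868 and AAEL019869 both count among the 13, and the share over all genes called lower was not computed.

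AAEL000080 was 1 of the 4 genes of this direction that rose with heme in A20 cells. It had 583, 585 and 665 CPM in 10 μM heme, against 298, 304 and 271 CPM in 0 μM heme, without overlap. The log2 fold change was 1.78 ± 0.13 (SE) (adjusted p = 7.19e-06 in edgeR's test), and 1.07 when scaled by library size alone, and the call held in all 6 fits with a library left out. The other 3, AAEL012327, AAEL001573 and AAEL009351, had log2 fold changes of 2.07, 1.85 and 1.67. Called genes in A20 cells therefore followed the direction of Schneider's medium in some members and that of L-15 medium in others, and at 48 h AAEL000080 itself had a log2 fold change of 0.05 ± 0.09 (SE) (adjusted p = 0.761).

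In the opposite direction, 3 abundant genes without a named product rose most in A20 cells. AAEL023799 had 4226, 20644 and 13165 CPM in 10 μM heme, against 123, 194 and 364 CPM in 0 μM heme (6.58 ± 0.71 (SE), adjusted p = 4.05e-05 in edgeR's test). AAEL027243 had 7792, 22881 and 17079 CPM in 10 μM heme, against 199, 319.7 and 604 CPM in 0 μM heme (6.17 ± 0.60 (SE), adjusted p = 2.26e-05). AAEL019860 (chromosome 3, 135668411 to 136653404) had 9879.6, 30014 and 21549 CPM in 10 μM heme, against 587, 706 and 1209 CPM in 0 μM heme (5.38 ± 0.52 (SE), adjusted p = 2.22e-05). The 3 moved together, with replicate 1 of the heme group lowest each time, and took 2.19%, 7.35% and 5.18% of all counts in the 3 heme libraries. Each stayed called in 2 of the 6 fits with a library left out. Whether their reads are shared was not tested. In both Aag2 media the same 3 genes were abundant under every treatment, with d between -0.89 and -0.68 in Schneider's medium and between 0.45 and 0.71 in L-15 medium. At 48 h in Schneider's medium their log2 fold changes with heme were positive, opposite to that medium at 72 h. They were 0.61, 0.87 and 0.67 in the order above, not past the threshold (adjusted p = 0.0403, 0.00345 and 0.00800 in edgeR's test).

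The genes called lower in A20 cells in this direction included AAEL009173 (fasciclin II), with 25.1, 11.8 and 13.4 CPM in 10 μM heme, against 82.3, 93.9 and 89.8 CPM in 0 μM heme (-1.74 ± 0.21 (SE), adjusted p = 8.49e-05 in edgeR's test), and AAEL007804 (-1.31 ± 0.11 (SE), adjusted p = 9.68e-06). For fasciclin II the 2 groups did not overlap. With each of the 6 libraries left out in turn, the call held in 1 fit for fasciclin II and in 4 for AAEL007804. The 7 genes called at 48 h and the 34 called in A20 cells had no gene in common.

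**Figure D4:**
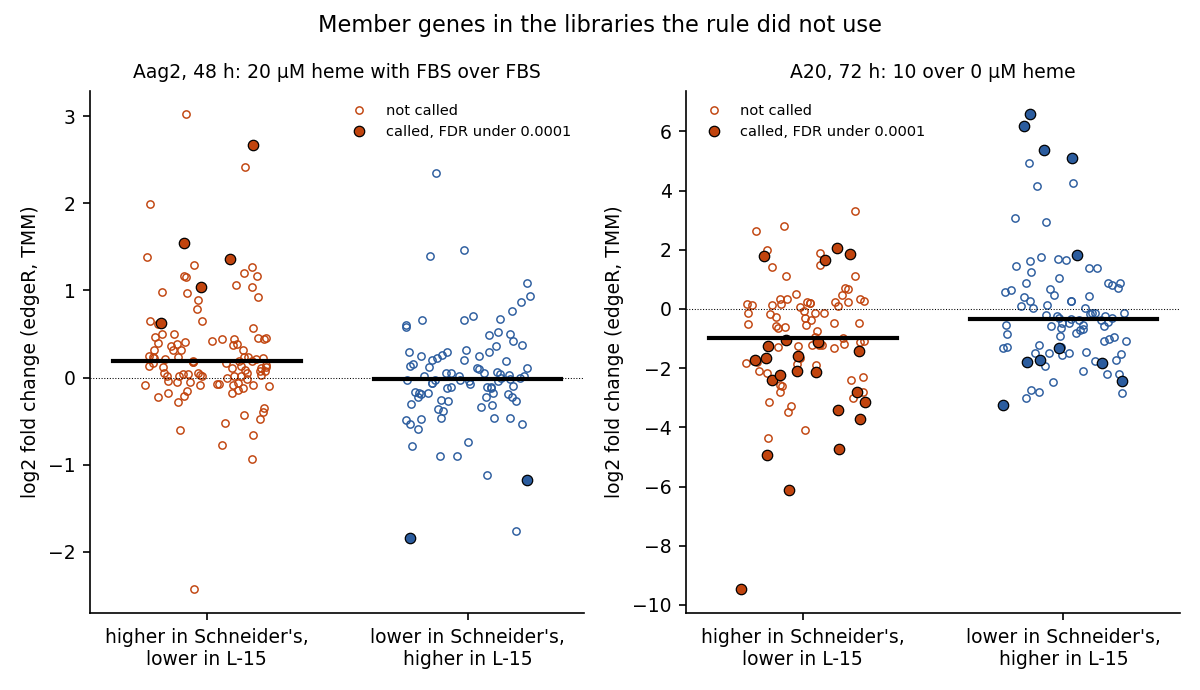
Log2 fold change with heme (y axis, edgeR with TMM scaling) of the member genes in Aag2 cells at 48 h (left, 20 μM heme with FBS over FBS) and in A20 cells (right, 10 over 0 μM heme), by direction at 72 h (x axis), with filled points for genes called at an adjusted p under 0.0001 and black lines for medians. At 48 h the medians are 0.19 and -0.02, and in A20 cells -0.97 and -0.33.

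The rule's own difference was also computed in the experiments it had not used, over genes with at least 5 CPM there. At 48 h, d was at least 0.4 for 23 of 85 genes higher in Schneider's medium (27.1%, beside 5.20% of all 8173 genes) and at most -0.4 for 5 (5.88%, beside 4.58%). For the genes of the opposite direction, 10 of 57 were at or above 0.4 and 10 at or below -0.4 (17.5% each). In A20 cells, 11 of 58 genes higher in Schneider's medium were at or above 0.4 (19.0%, beside 36.9% of all 7866 genes) and 35 at or below -0.4 (60.3%, beside 37.6%). Of the genes in the opposite direction, 16 of 49 were at or above 0.4 (32.7%) and 19 at or below -0.4 (38.8%), close to the shares over all genes.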

How the data were processed

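RNA of cultured cells was sequenced as paired-end reads, with library kits that the labels give as different for the 48 h experiment and the others. HISAT2 2.1.0 was used by the authors for alignment to AaegL5, followed by a minimum mapping quality of 10 and read counting in BEDtools. The deposited values are whole-number counts per gene, without normalization, for 19712 identifiers in each of 4 experiments (22860764 to 38002762 counts per library, median 26421952).

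CPM were computed from column totals, with a pseudocount of 1 CPM in d. The medians subtracted were 0.0918 in Schneider's medium (8357 genes) and 0.0426 in L-15 medium (8974 genes). Tests used edgeR 4.0.16 in R 4.3.3 (filterByExpr, TMM, quasi-likelihood F test, all libraries of an experiment in 1 fit, Benjamini-Hochberg adjustment over all genes tested, threshold 0.0001, as in the study, which used edgeR's exact test). The SE of a log2 fold change was its size over the square root of F. The steps were tested on simulated data. Replicate libraries differed by more than sampling noise in every group. Alternatives were the exact test, DESeq2 1.42.0, RLE or no size factors, other filters, a replicate block, a threshold of 0.05, and each library left out.

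The member genes and gene lists were chosen with earlier results of these data known. Named genes were, per direction, the 8 with the largest smaller d among genes with at least 10 CPM and groups apart in both media, the 8 so ranked with a named product, members of heme and iron metabolism, the 3 largest called rises and falls at 48 h and in A20 cells, and the genes on either side of the limit. Products came from the study's annotation of 1547 genes, 773 of them with a product, which is held only in part. Places of 28 members came from RefSeq (AaegL5.0). Figures were drawn with matplotlib 3.10.9.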

Additional observations from a re-analysis of the deposited data

How the results depend on the processing

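The choice of the 227 genes depended on the limit and on low levels. It gave 78 genes at a limit of 0.6, 12 at a limit of 1, 107 with a pseudocount of 5 CPM and 140 with a mean of at least 5 CPM in both media, and 225 to 251 with 1 library left out. With a pseudocount of 0.5 CPM it took 304 genes (155 and 149 in the 2 directions), among them all 227. Without subtracting the median it took 226 genes, of which 183 were among the 227, and the directions held 145 and 81 genes in place of 121 and 106. With CPM scaled by TMM or RLE size factors it took 222 (122 and 100), of which 207 were among the 227.

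Calls of members rose with a looser test. At an adjusted p under 0.05 they numbered 62 at 48 h, 117 in A20 cells, 132 between media with FBS, 190 in Schneider's medium and 189 in L-15 medium, in place of 7, 34, 60, 88 and 79. The exact test gave 26 calls at 48 h, 74 for A20 and 119 for L-15 medium, and DESeq2 gave 33, 73 and 127 there. Without a filter on low counts, 12 were called at 48 h. With 1 library left out, the calls ranged from 0 to 5 at 48 h, 5 to 54 in A20 cells, 54 to 60 between media, 61 to 69 in Schneider's medium and 53 to 65 in L-15 medium, where AAEL005287 was called higher without replicate 1 of 0 μM heme, the 1 library of its group that was high. Over all genes, the calls at 48 h were 92, against 2679 at 0.05, 655 by the exact test, 1014 by DESeq2 and 271 without a filter. In A20 cells they were 2318, against 8174, 5041 and 5320 at 0.05, by the exact test and by DESeq2. They were 2442 between media, against 6128 at 0.05, 2250 in Schneider's medium, against 6617 at 0.05 and 3642 by DESeq2, and 2518 in L-15 medium, against 8026, 4269 and 4656. The causes were not tested.

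Same-numbered libraries deviated together by correlations of -0.04 to 0.125, and the main fits did not pair them. Between A20 libraries with FBS and in 0 μM heme these were 0.125, 0.0615 and 0.0472. Low correlations over all genes cannot show that libraries are unpaired. With the replicate block, members called numbered 0 at 48 h (21 of all genes), 9 in A20 cells (541 of all genes), 59 between media, 70 in Schneider's medium and 62 in L-15 medium, and the rule took 215 genes. Of 690 values of named genes at 48 h and in A20 cells under other settings, 606 kept their side of the threshold, 65 lost a call, 19 gained one and no called value changed sign.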

Other observations

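Some members had 1 library far from the others of its group. In 41 of the 227 genes, at least 1 of the 4 groups that entered d held a library 2-fold or more from both others (on CPM plus 1). Among genes with a mean of at least 5 CPM in both media this was so for 15 of 140 members (10.7%) and for 121 of all 8179 genes (1.48%), a comparison that the rule itself affects, since such a library can produce d. AAEL009351, picked out after its values were seen, had 42.9, 45.1 and 156 CPM in 10 μM heme, against 28.7, 30.1 and 30.0 CPM in 0 μM heme in Schneider's medium. In L-15 medium it had 37.2, 38.5 and 146 CPM in 10 μM heme, against 173, 186 and 46.6 CPM in 0 μM heme. With FBS it had 32.6, 31.8 and 28.8 CPM in L-15 medium, against 35.2, 127 and 36.3 CPM in Schneider's medium, and at 48 h 109, 25.0 and 26.1 CPM with 20 μM heme, against 95.8, 93.4 and 20.9 CPM with FBS alone. Its libraries were thus either low or several-fold higher within the same treatment, in Aag2 cells but not in A20 cells, where it had 231, 208 and 220.4 CPM in 10 μM heme, against 120.0, 111 and 106 CPM in 0 μM heme. What goes with the high libraries was not tested.

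L-lactate dehydrogenase (AAEL012014) was also higher at 48 h, with 567, 557 and 531 CPM with 20 μM heme, against 334, 309.8 and 217 CPM with FBS alone, without overlap and not past the threshold (log2 fold change 0.94 ± 0.13 (SE), adjusted p = 0.00182 in edgeR's quasi-likelihood test). It was past the threshold without replicate 3 of the FBS group. This was its direction in L-15 medium at 72 h and not that in Schneider's medium, the medium of the 48 h cultures.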
